A study of Oncorhynchus mykiss with 69 samples.

Results

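The genes described here are the rainbow trout selenoprotein genes whose NCBI symbol begins with seleno. The reference gene table lists 11 of them, and 8 were found in at least 1 of the 6 fold-change tables, out of 35945 genes over all of these tables. They are selenoh (NCBI gene 110505042), selenow1 (110510040), selenok (110532070), selenon (110498139), selenoi (110529243), selenol (100499255), selenoo1 (110532298) and selenoe (100502560). The genes selenof, selenop2 and selenot2 were in none of the tables and were not analysed here. With methylmercury, 6 of the genes were measured in gill (all but selenok and selenoe), 6 in liver (all but selenoi and selenoe) and 7 in gut (all but selenoe). With fluoxetine, 4 were measured in gill (selenoe, selenol, selenoo1, selenow1), 3 in liver (selenok, selenol, selenoo1) and 4 in gut (selenoe, selenoh, selenol, selenoo1).

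Selenoproteins carry selenocysteine, an amino acid placed at a UGA codon that a hairpin in the messenger RNA recodes from stop to sense. Selenocysteine is more nucleophilic than cysteine and sits in the active site of many redox enzymes, and mercury compounds bind selenium even more tightly than sulfur. In rodents the transcripts of Gpx1, Selenoh and Selenow are among those that fall most when selenium is short, whereas others hardly move.

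The study took 3 rainbow trout (Oncorhynchus mykiss) cell lines, RTgill-W1 from gill, RTL-W1 from liver and a gut line that the labels write RTgutCC, and sequenced total RNA after 24 h of exposure in 69 libraries. Methylmercury was given at 5 concentrations, written 0.25, 2.5, 25, 125 and 250 in the tables and 250 times lower in the sample titles, both with no unit, and the table scale is used below. Each line had 2 control libraries and 2 libraries per methylmercury concentration, and for fluoxetine 1 library at each of 1.6, 4, 8, 20, 40, 100, 200, 500 and 1000 ppb beside 2 controls, named ctrl and H2O. The labels name no modification of the lines, each stands for its tissue as 1 established culture, and the labels do not say whether duplicate libraries came from separate cultures, so p-values measure the spread between these libraries, which may be technical.

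Depth in the tabulated genes was estimated at 7.74 to 11.5 M reads for methylmercury and 1.83 to 7.67 M for fluoxetine. The median gene fell with methylmercury, by 0.05, 0.11 and 0.21 log2 units at 25, by 0.46, 0.43 and 0.56 at 125 and by 0.89, 0.78 and 1.01 at 250 in gill, liver and gut. Changes are therefore given relative to the median gene of the same line and concentration, unless said to be as deposited. Of the markers looked up for the labelled tissues, the liver line had transferrin (tf) at 164 CPM (reads scaled to a common library total over the table's genes) and the keratin gene krt18b at 3630. It also had the collagen genes col1a2 at 28240 and col1a1b at 20350 and the endothelial gene tek at 55.6. The other measured epithelial and endothelial markers of this line were low, vil1 at 2.07, cdx1b at 0.0 and pecam1 at 1.28. The krt18b level was 0.53 in the gill line and 0.41 in the gut line. The measured mesenchymal markers summed to 48600 CPM in liver controls, 8733 in gill and 3680 in gut. These sums add different genes and are not compared between lines. Liver had col1a1b, col1a2 and vim, gut had col1a1a, fn1a and vim, and gill had col1a1a, col1a1b, col1a2 and vim. Of 12 hepatocyte symbols 4 are in the reference gene table, and of these 0 were measured in gill, 1 in liver (tf) and 1 in gut (fga). Of 6 leukocyte symbols 3 are in the reference gene table, and 1 was measured in gill, 2 in liver and 2 in gut. The summed level of these few leukocyte markers stayed at or below 1.45 CPM in each methylmercury group of every line. Markers moved in both directions at 250 methylmercury. Relative to the median gene, tf in liver changed by −1.16 ± 0.22 log2 units, tek by −2.06 ± 0.43 and pecam1 by −0.47 ± 0.38 (SE, n = 2 libraries per group, as for the fold changes below). In gill col1a1b changed by −1.29 ± 0.09, col1a2 by −0.69 ± 0.13, col1a1a by 0.09 ± 0.09 and vim by 0.29 ± 0.18. Of these, col1a1b and col1a2 were called lower. In gut fga changed by 2.15 ± 0.22, and the measured mesenchymal markers col1a1a, fn1a and vim were all called higher, at 1.84, 1.89 and 1.09. As deposited vim changed by 0.08 there, with 8.07 CPM in control and 7.15 at 250, and did not pass the deposited F-test (adjusted p = 0.103). Over the control and methylmercury groups the mesenchymal sum ran from 3182 to 8733 CPM in gill, from 25750 to 49300 in liver and from 3533 to 5850 in gut. Their part in the results below was not tested.

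In unexposed cells of the gill, liver and gut lines selenoh was at 56.2, 64.1 and 61.6 CPM. These levels lay close together. Control levels of selenow1 were 37.0, 53.4 and 46.4, and those of selenon were 85.6, 161 and 118 in gill, liver and gut. The gene selenoi stood at 69.8 in gill and 141 in gut, and selenok at 32.7 in liver and 77.1 in gut. The SE of such a control level was 0.06 to 0.14 log2 units, so that neighbouring lines could not be told apart for selenoh, nor liver from gut for selenow1, while the CPM of selenoi and selenok lay apart by several times that error. Set against each line's median gene, gill came before gut for selenoh, selenow1 and selenon, the reverse of their order by CPM, with liver highest on both scales. Because each table was normalised separately, these orders are descriptions without a test.

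The remaining genes of the methylmercury tables, selenol and selenoo1, had few reads. Control levels of selenol were 0.50, 1.77 and 1.03 CPM in gill, liver and gut, and 1.23, 5.81 and 2.09 in the fluoxetine controls of the same lines, so that liver was highest and gill lowest in both experiments. Control levels of selenoo1 were 0.85, 0.48 and 0.080 with the methylmercury series and 1.37, 0.89 and 0.85 with the fluoxetine series, in the order gill, liver, gut in both. The estimated reads per control library were 0.62 to 16.5 for methylmercury and 4.11 to 26.9 for fluoxetine. In the methylmercury controls the SE of a level was 0.33 to 0.84 log2 units, about as wide as the step between neighbouring lines except for selenoo1 between liver and gut.

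**Figure D1:**
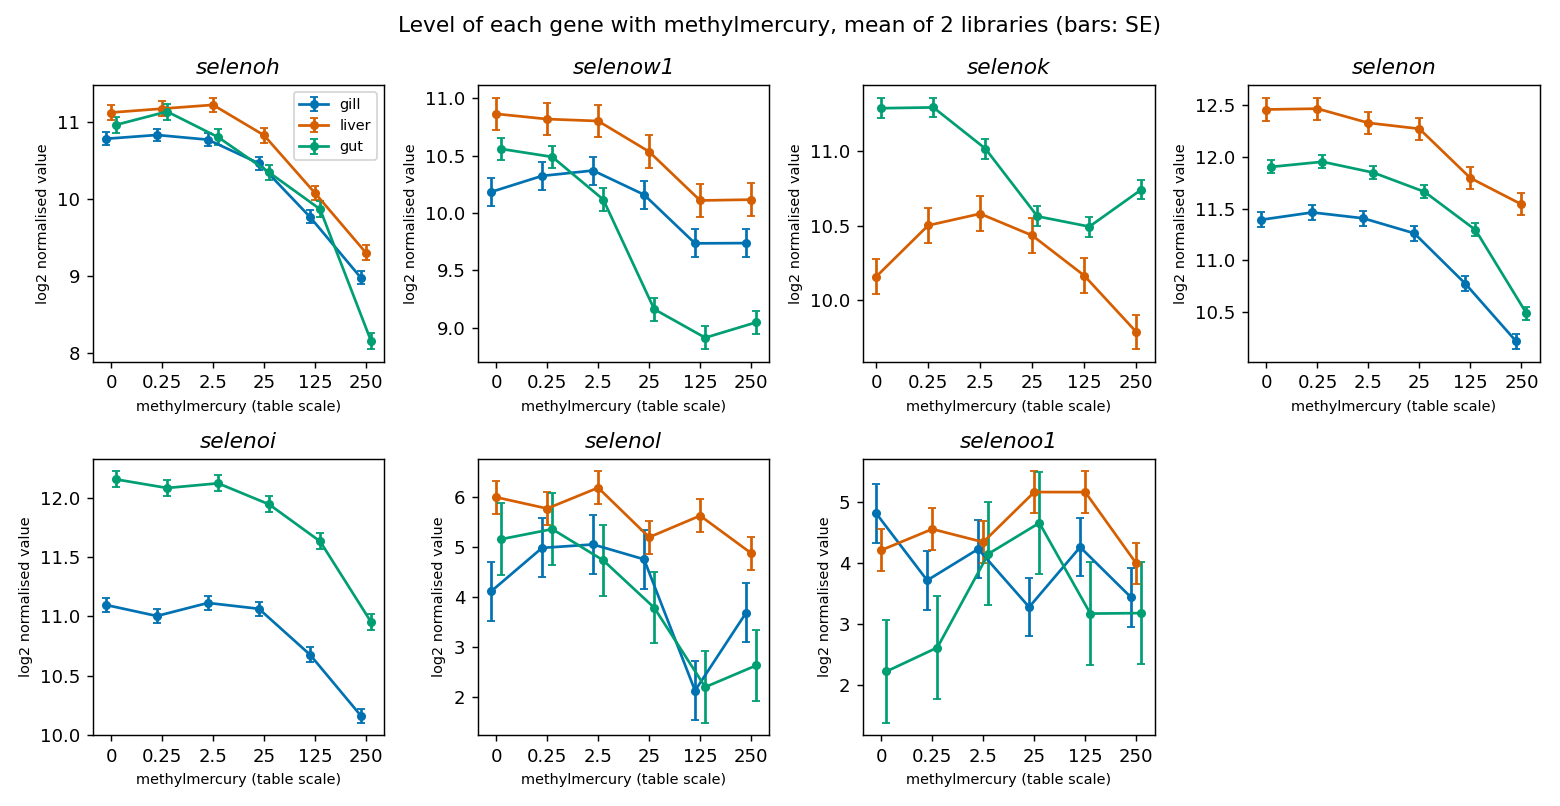
Level of the 7 selenoprotein genes of the methylmercury tables (log2 normalised value, mean of 2 libraries, bars SE from the moderated variance) at 0 to 250 on the table scale, gill in blue, liver in orange and gut in green. The line of selenoh falls in all 3 cell lines from 25 on, that of selenow1 in gut drops between 2.5 and 25 and then stays level, and those of selenol and selenoo1 move within wide error bars.

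With methylmercury, the 5 genes with more than 100 reads in unexposed cells, selenoh, selenow1, selenok, selenon and selenoi, all passed the authors' F-test over the concentrations wherever they were measured. By the authors' deposited tables, gill had 4 of 6 members past this test, liver 4 of 6 and gut 5 of 7, beside 56.8%, 45.8% and 63.4% of all genes. Once each gene was set against the median gene, the same F-test called 1 member in gill and 1 in liver, selenoh in both, and 4 in gut, selenoh, selenow1, selenok and selenon, beside 27.8%, 19.1% and 40.5% of all genes. As deposited, the median change of the members at 250 was −1.05 in gill, −0.83 in liver and −1.41 in gut, beside −0.89, −0.78 and −1.01 over all genes. Less RNA of a gene per cell and fewer cells with it cannot be told apart in such bulk libraries.

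By concentration, no member was called against control at 0.25, where 0.0221%, 0.0345% and 0.0549% of all genes were called in gill, liver and gut, or at 2.5, where these shares were 0.0354%, 0.0431% and 0.0503%. Unadjusted p-values under 0.05 were found for 0 members at 0.25, and at 2.5 for 0, 1 and 2 members in these lines. At 25, 0 members were called in gill, 0 in liver and 1 in gut (selenow1), beside 0.372%, 0.069% and 0.988% of all genes. There 0, 1 and 3 members were under an unadjusted p of 0.05. The shares of all genes given here are for adjusted p, so the unadjusted counts are not read as a result about the members. At 125, 1 member was called in gill, 1 in liver and 2 in gut, all lower than the median gene, beside 16.5%, 10.8% and 16.1% of all genes. At 250 the counts were 1, 1 and 4, beside 36.6%, 29.0% and 47.8%. The members called at 250 were lower in gill (1), liver (1) and gut (3), where 19.6%, 13.3% and 25.9% of all genes were called lower, and 1 member was higher, in gut, where 21.9% of all genes were. In gill and liver 0 members were called higher, beside 17.0% and 15.7%. The member shares in gill and liver were thus below or near those of all genes, and what follows describes single genes rather than the group.

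The gene selenoh fell in all 3 lines and was the one member called in each. It encodes a small thioredoxin-fold protein found in the nucleus and nucleolus of mammalian cells, where it is known for redox and DNA-binding activity. Its log2 normalised level in gill was 10.79 in the controls and 10.83, 10.77, 10.47, 9.77 and 8.97 at the 5 rising concentrations. In liver it was 11.13 in the controls and then 11.18, 11.23, 10.83, 10.08 and 9.30. The gut line had 10.97 in the controls and then 11.14, 10.81, 10.35, 9.87 and 8.15. At the 2 lowest concentrations the level moved from the control by at most 0.17 log2 units, in gut, and in each line the level then went down at every further step. In reads, a control library held an estimated 561, 598 and 477 of selenoh in gill, liver and gut, and a library at 250 held 155, 177 and 59.9.

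Relative to the median gene, selenoh at 125 was lower by similar amounts in the 3 lines. The changes were −0.56 ± 0.12 log2 units in gill (adjusted p = 0.0183), −0.62 ± 0.14 in liver (adjusted p = 0.0299) and −0.54 ± 0.15 in gut (adjusted p = 0.048). At 250 they were −0.92 ± 0.12 in gill (adjusted p = 0.000897), −1.05 ± 0.14 in liver (adjusted p = 0.00138) and −1.81 ± 0.15 in gut (adjusted p = 6.81e-05). From 125 to 250 the value went down farther in gut than in gill or liver, a step that was not tested between lines. Between 25 and 250 selenoh went down relative to the median gene in gill (−0.65, adjusted p = 0.00547), liver (−0.87, adjusted p = 0.00447) and gut (−1.39, adjusted p = 0.000282). In gill and liver it was the only member called between these concentrations, beside 33.2% and 23.1% of all genes. As deposited, the changes at 250 were −1.81, −1.83 and −2.82. Among all genes of each table, 15.6%, 13.1% and 6.03% changed by a lower value than selenoh at 250, so it lay in the lower part of the distribution without being at its end.

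**Figure D2:**
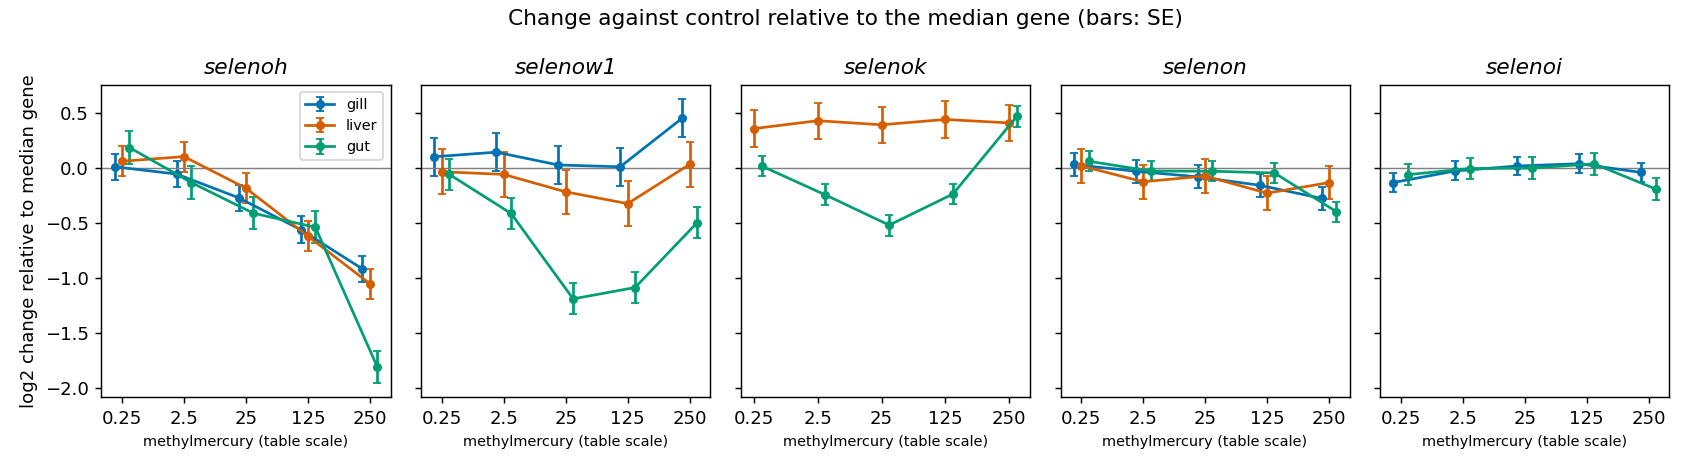
Change of the 5 better counted genes against control relative to the median gene (log2, bars SE, n = 2 libraries per group) at each methylmercury concentration, gill in blue, liver in orange and gut in green. The selenoh panel shows −0.92, −1.05 and −1.81 at 250. In the selenow1 panel gut dips to −1.19 at 25, where gill is at 0.02, and gill reaches 0.45 at 250. The selenok panel shows a dip to −0.52 at 25 and 0.46 at 250 in gut.

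The selenow1 gene, which encodes a small cytosolic thioredoxin-fold protein that binds glutathione in mammals, was called in gut from 25 on, whereas selenoh was called there from 125 on. Its log2 level in gut was 10.56 in the controls and 10.49, 10.12, 9.16, 8.91 and 9.05 at the 5 concentrations. An estimated 359 reads per control library became 145 at 25 and 112 at 250. Relative to the median gene the change was −0.06 ± 0.14 at 0.25, −0.41 ± 0.14 at 2.5 and −1.19 ± 0.14 at 25, and only the last of these was called (adjusted p = 0.0254). It remained below the median gene at 125, at −1.09 (adjusted p = 0.00201), and at 250, at −0.50 (adjusted p = 0.0226). From 25 to 250 the deposited level changed by −0.11 log2 units (95% interval −0.44 to 0.22) while the median gene fell by 0.80, so that selenow1 came closer to the median gene by 0.69 (adjusted p = 0.00608). This was 1 of 4 members called in gut between 25 and 250, beside 45.7% of all genes, the others being selenoh and selenon (lower) and selenok (higher).

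In the other lines selenow1 was not called against the median gene at any concentration. In gill its log2 level was 10.18 in the controls and then 10.32, 10.37, 10.16, 9.73 and 9.74. The gill change at 250 was −0.45 as deposited but 0.45 ± 0.17 against the median gene (adjusted p = 0.083). In liver the level was 10.86 in the controls and then 10.82, 10.80, 10.53, 10.11 and 10.12. The liver change at 250, −0.75 as deposited, was 0.03 ± 0.20 relative to the median gene (adjusted p = 0.932), and −0.059 relative to the mean of the better expressed genes (those above the median of mean expression). Its direction in gill and liver thus depends on what it is set against.

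Differences between lines were tested directly, as the change in 1 line minus that in another, over all genes measured in both. Between gill and gut 2 of 6 members differed at 250, beside 17.5% of all genes. The change of selenoh was 0.89 ± 0.19 log2 units less negative in gill (95% interval 0.48 to 1.29, adjusted p = 0.00522), and that of selenow1 was 0.95 ± 0.22 higher (95% interval 0.47 to 1.43, adjusted p = 0.0097). Liver and gut differed at 250 in 1 of 6 members, selenoh, by 0.75 ± 0.20 (adjusted p = 0.0169), beside 19.3% of all genes. That last call was lost when changes were set against the mean of the better expressed genes, with a difference of 0.57 (adjusted p = 0.0613). The liver and gut changes of selenow1 at 250 differed by 0.53 (95% interval −0.003 to 1.06, adjusted p = 0.152), and by 0.76 as deposited (adjusted p = 0.0375).

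Gill and liver showed no called difference in any of the 5 members measured in both at 250, 125 or 25, beside 11.6%, 3.12% and 0.0497% of all genes, with 0, 0 and 1 members under an unadjusted p of 0.05. For selenoh at 250 the gill change minus the liver change was 0.13 (95% interval −0.25 to 0.52). At 125, gill and gut differed in 1 of 6 members, selenow1, by 1.09 ± 0.22 (adjusted p = 0.00899), beside 5.47% of all genes, and liver and gut in 0 of 6, beside 2.27%. The liver change of selenow1 at 125 lay 0.76 above that in gut (adjusted p = 0.162). At 25, where 0.0635% of all genes differed between gill and gut and 0.0124% between liver and gut, 0 of 6 members were called in either pair. There the gill change of selenow1 lay 1.21 ± 0.22 above that in gut (adjusted p = 0.0731, and 0.033 as deposited). Unadjusted p-values under 0.05 were found for 2 members in each of these 2 comparisons at 25, and for 2 between liver and gut at 125. The share of all genes under this unadjusted cut-off is not given, so such counts are not read as a result about the members.

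The selenok gene encodes a small protein of the endoplasmic reticulum membrane that, in mammals, works with the acyltransferase Zdhhc6 and with derlins and Vcp in the removal of misfolded proteins. In gut its log2 level was 11.29 in the controls and 11.30, 11.02, 10.56, 10.49 and 10.74 at the 5 concentrations. The level was lowest at 125 and higher again at 250. Relative to the median gene the changes at 25, 125 and 250 were −0.52 ± 0.09 (adjusted p = 0.061), −0.24 (adjusted p = 0.15) and 0.46 (adjusted p = 0.00576), and as deposited −0.73, −0.80 and −0.55. From 25 to 250 selenok rose by 0.98 ± 0.09 relative to the median gene (adjusted p = 0.000184) and changed by 0.18 as deposited (95% interval −0.04 to 0.40). Over the same span the median gene fell by 0.80.

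In liver selenok had a log2 level of 10.16 in the controls and then 10.50, 10.58, 10.43, 10.16 and 9.78. Relative to the median gene all 5 exposed groups were above the control pair, by 0.35, 0.43, 0.39, 0.44 and 0.41 (SE 0.16), and none of them was called, with adjusted p = 0.11 at 250. All 5 values share the same 2 control libraries. As deposited the change at 250 was −0.37. The changes in liver and gut at 250 differed by −0.06 (95% interval −0.47 to 0.36), and at 125 by 0.68 (adjusted p = 0.104, and 0.0476 as deposited).

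Changes of selenon and selenoi relative to the median gene were small, and 1 of them, selenon in gut at 250, was called. The selenon protein lies in the endoplasmic reticulum, where in mammals it senses calcium and acts on the calcium pump, and its loss causes a muscle disease in humans. Its log2 level went from 11.39 in the gill controls to 10.22 at 250, from 12.45 to 11.54 in liver and from 11.90 to 10.49 in gut. Relative to the median gene the changes at 250 were −0.28 ± 0.10 in gill (adjusted p = 0.0762), −0.14 ± 0.15 in liver (adjusted p = 0.554) and −0.40 ± 0.09 in gut (adjusted p = 0.00877). At 125 they were −0.16, −0.23 and −0.05, none of them called. The deposited F-test gave selenon an adjusted p of 0.000222, 0.00739 and 4.86e-05 in these lines.

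The selenoi gene encodes the ethanolamine phosphotransferase that makes phosphatidylethanolamine in the endoplasmic reticulum membrane. Its log2 level went from 11.10 in the gill controls to 10.16 at 250, and from 12.16 to 10.95 in gut. The change relative to the median gene at 250 was −0.04 ± 0.09 in gill (adjusted p = 0.731) and −0.19 ± 0.10 in gut (adjusted p = 0.14), and at the other concentrations it lay between −0.13 and 0.04 in both lines. As deposited the changes at 250 were −0.94 and −1.21.

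**Figure D3:**
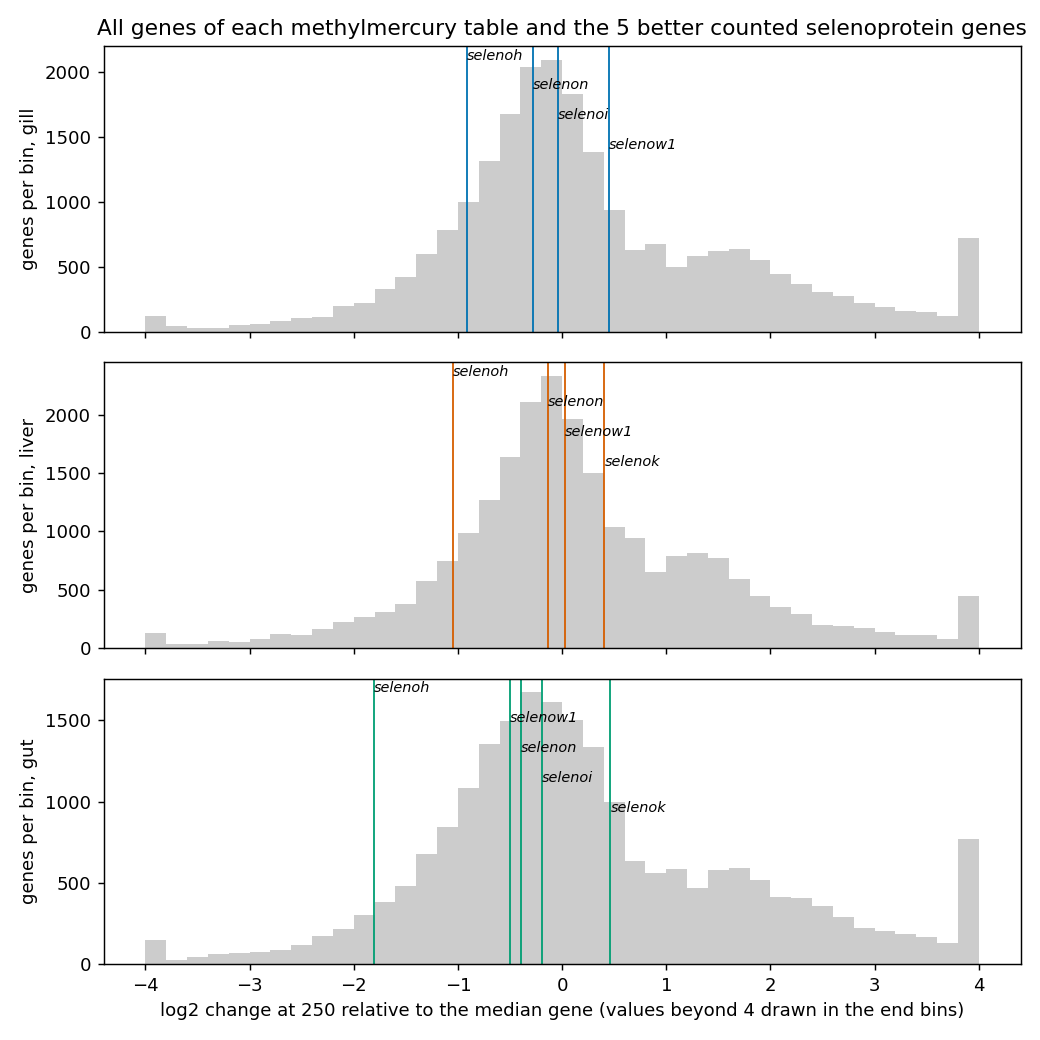
Number of genes per bin of 0.2 log2 units of change at 250 methylmercury relative to the median gene (grey bars), for gill, liver and gut from top to bottom, with a line for each of the better counted selenoprotein genes. In every panel selenoh is the member farthest to the left, with 15.6%, 13.1% and 6.03% of genes below it, while the others lie between −0.50 and 0.46, inside the central peak.

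For selenol and selenoo1 no change relative to the median gene was called at any concentration, on few reads. The selenol protein, with a pair of selenocysteines in a thioredoxin fold, is known from fish and other aquatic animals, and selenoo1 encodes a mitochondrial protein that, in mammals, attaches AMP to other proteins. Estimated reads of selenol per library ran from 0.82 to 8.51 over the 6 gill groups, from 7.76 to 18.8 over the liver groups and from 0.82 to 9.49 over the gut groups. For selenoo1 the gill groups ran from 2.37 to 8.49, the liver groups from 4.0 to 11.3 and the gut groups from 0.62 to 5.92. Neither gene passed the F-test in any line, with adjusted p between 0.0971 (selenol in gut) and 0.46 (selenoo1 in gut) in the authors' deposited tables. Their intervals, from the recovered variance between libraries, were wide. For selenol in gut at 250 the change relative to the median gene was −1.51 (95% interval −3.89 to 0.87). At 125 it was −2.39 (95% interval −4.77 to −0.01, adjusted p = 0.174). The change of selenoo1 in liver at 125 was 1.38 (95% interval 0.25 to 2.51, adjusted p = 0.127). Both of these intervals at 125 leave out 0, but neither change was called. Without centring, selenol in gut at 125 changed by −2.95 and was called, at an estimated 0.82 reads per library.

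Benchmark doses, the concentrations at which the authors' fitted curve of a gene leaves the control range, were listed for 1 member per line (6 members were measured in gill and liver, 7 in gut), while 21.5% of all gill genes, 15.2% of liver genes and 28.9% of gut genes had a row, so that the member share was near or below that of all genes. In the authors' deposited tables selenoh had a benchmark dose of 5.40 in gill (lower and upper bound 1.74 and 9.61) and 5.95 in liver (1.90 and 10.6). These intervals overlap over most of their length. In gut the listed member was selenow1, at 0.791 (0.294 and 1.31). Over all genes with a passing dose the medians were 23.1, 28.2 and 26.4 in gill, liver and gut, and 5.35% of genes in gill and 5.74% in liver had a lower dose than selenoh, against 0.803% with a lower dose than selenow1 in gut. The gut table of benchmark doses had no row for selenoh. With fluoxetine no member had a row.

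None of the 4 other seleno genes measured in all 3 lines was among the 5 genes whose course was most like that of selenoh. With so few places among the genes compared, the absence of a given gene says little. The genes selenok and selenoi were not compared. Likeness was measured as the root mean square difference of the 15 changes relative to the median gene (5 concentrations in 3 lines) over 3005 genes with a symbol measured in all 3 lines. The 5 nearest were si:dkey-4e7.3 (0.126 log2 units), the acetylcholine receptor chaperone gene ric3a (0.127), hibch of valine breakdown (0.128), the collagen prolyl isomerase gene fkbp10b (0.144) and chpf2 of chondroitin synthesis (0.150). The median over all genes was 0.651, and selenon, selenow1, selenol and selenoo1 were at 0.520, 0.651, 0.848 and 1.71. At 250 hibch changed by −1.14, −1.02 and −1.98 in gill, liver and gut, beside −0.92, −1.05 and −1.81 for selenoh. These values are among those that picked hibch.

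Selenoproteins with other symbols did not move as 1 group. Of 17 symbols looked up, 6 are in the reference table and 3 were measured in each line. At 250, 1 of these was called in gill (lower), 2 in liver (1 higher, 1 lower) and 2 in gut (1 higher, 1 lower), beside 36.6%, 29.0% and 47.8% of all genes called. The thyroid hormone activating enzyme gene dio1 was lower, at −1.22 ± 0.24 in gill (adjusted p = 0.00607) and −1.04 ± 0.12 in gut (adjusted p = 0.000446), and stood at −0.96 ± 0.32 in liver (adjusted p = 0.0611). Gene gpx4a, for the peroxidase that reduces lipid hydroperoxides in membranes, was at −0.02 in gill and 0.01 in gut and lower in liver, at −0.55 ± 0.16 (adjusted p = 0.0377). The higher calls, named after their values were seen, were dio2 in gut (1.73 ± 0.38, adjusted p = 0.00859) and the methionine sulfoxide reductase gene msrb1b in liver (1.00 ± 0.26, adjusted p = 0.0254). As deposited they changed by 0.71 and 0.22, neither passed the deposited F-test (adjusted p = 0.164 and 0.213), and their control levels were 3.47 and 5.21 CPM. The list medians were −0.02, −0.55 and 0.01 in gill, liver and gut.

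A pair of selenoproteins listed in trout under gpx1 and txnrd2.2 was added after the first look at the tables. The glutathione peroxidase gene gpx1 rose by 1.72 ± 0.16 in gill, 1.49 ± 0.24 in liver and 2.64 ± 0.19 in gut relative to the median gene (adjusted p = 0.000182, 0.00373 and 3.6e-05). The deposited changes were 0.83, 0.71 and 1.63. The thioredoxin reductase gene txnrd2.2 was lower in gill, at −0.36 ± 0.11 (adjusted p = 0.0445), and in gut, at −0.66 ± 0.12 (adjusted p = 0.00329). In each line gpx1 thus rose where selenoh fell.

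**Figure D4:**
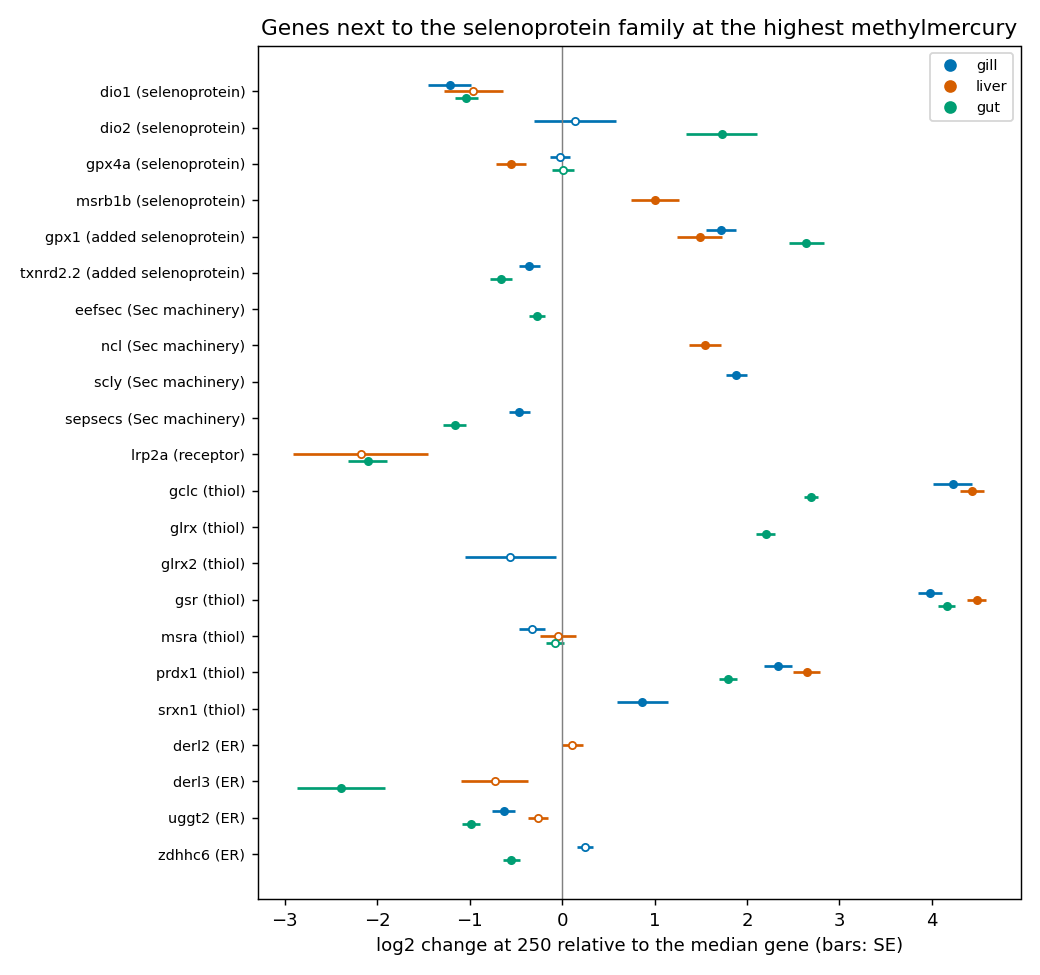
Change at 250 methylmercury relative to the median gene (log2, bars SE, n = 2 libraries per group) of selenoprotein genes with other symbols and of genes that work with selenoproteins, gill in blue, liver in orange and gut in green. Filled points passed an adjusted p of 0.05. The thiol genes gsr, gclc and prdx1 and the peroxidase gene gpx1 lie to the right of 0 in every line, and dio1, lrp2a and uggt2 to the left.

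Of the genes that make and insert selenocysteine, 14 symbols were looked up and 5 are in the reference table. Of 2 measured in gill 1 was higher and 1 lower at 250, the 1 measured in liver was higher, and both measured in gut were lower, beside the same 36.6%, 29.0% and 47.8% of all genes called, with list medians of 0.71, 1.54 and −0.72. The gene sepsecs, for the enzyme that converts phosphoseryl-tRNA to selenocysteinyl-tRNA, was lower in gill (−0.46 ± 0.11, adjusted p = 0.018) and gut (−1.16 ± 0.12, adjusted p = 0.000276). The elongation factor gene eefsec was lower in gut by a small amount (−0.27 ± 0.09, adjusted p = 0.0389). In gill scly, whose product recovers selenium from selenocysteine, rose by 1.89 ± 0.12 (adjusted p = 2.09e-05). In liver the measured gene was ncl, for nucleolin, which has many roles beside binding selenoprotein messages, at 1.54 ± 0.17 (adjusted p = 0.00077).

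Of 4 receptor symbols for selenoprotein P, 2 are in the reference table, and no receptor was measured in gill. In liver and gut the measured gene was lrp2a (megalin, which takes up many other ligands). Its level was 338 CPM in control and 40.6 CPM at 250 in liver, and 97.9 and 9.42 CPM in gut. The change was −2.18 ± 0.73 in liver (adjusted p = 0.0632) and −2.10 ± 0.21 in gut (adjusted p = 0.000206). Thus 0 of 1 and 1 of 1 were called, beside 29.0% and 47.8% of all genes.

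Several genes of the thiol systems next to selenoproteins, among them gsr, gclc and prdx1, rose where selenoh fell. At 250 the gill line had 4 of 6 measured members called higher, the liver line 3 of 4 and the gut line 4 of 5, and none lower, beside 17.0%, 15.7% and 21.9% of all genes called higher, with list medians of 1.6, 3.54 and 2.2. The glutathione reductase gene gsr rose by 3.98 ± 0.13, 4.48 ± 0.10 and 4.16 ± 0.09 in gill, liver and gut, gclc of glutathione synthesis by 4.23, 4.43 and 2.69, and the peroxiredoxin gene prdx1 by 2.34, 2.65 and 1.80. Glutaredoxin (glrx) was measured in gut and rose by 2.2. Of the 4 called higher in gill, srxn1 was at 0.87 ± 0.27 relative to the median gene (adjusted p = 0.0437) but −0.03 as deposited. The methionine sulfoxide reductase gene msra, whose product does not contain selenium in vertebrates, was not called, at −0.33, −0.04 and −0.08, nor was the glutaredoxin gene glrx2 in gill, at −0.56 ± 0.49.

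Among partners of selenoproteins in the endoplasmic reticulum none was called higher at 250. The gill line had 1 of 2 measured members called lower, the liver line 0 of 3 and the gut line 3 of 3, beside 19.6%, 13.3% and 25.9% of all genes called lower, and the list medians were −0.19, −0.26 and −0.99. The gene uggt2, for a glucosyltransferase that marks misfolded glycoproteins, changed by −0.63 ± 0.12 in gill (adjusted p = 0.00553), −0.26 ± 0.11 in liver (adjusted p = 0.124) and −0.99 ± 0.10 in gut (adjusted p = 0.000173). In gut zdhhc6, for the acyltransferase that works with the selenok protein, was lower than the median gene (−0.55 ± 0.10, adjusted p = 0.00287). There selenok itself was higher than the median gene (0.46 ± 0.09). As deposited both were below control, zdhhc6 at −1.56 and selenok at −0.55. In gill zdhhc6 was at 0.25 ± 0.08 (adjusted p = 0.0543). Of the derlin genes, derl3 went from 2.90 to 0.174 CPM in gut, and derl2 in liver was at 0.11 ± 0.11.

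With fluoxetine, an antidepressant that blocks serotonin uptake, no selenoprotein gene was called. The authors' F-test and a trend on log10 concentration fitted with limma both called no member, with 4 tested for gill, 3 for liver and 4 for gut, and both called 0.0% of all genes in each line. At an unadjusted p under 0.05 the F-test gave 2528 gill, 2454 liver and 2253 gut genes and the trend 1203, 1515 and 1471. Among the members the F-test gave 1, 0 and 1, namely selenoe in gill (adjusted p = 0.258) and selenoo1 in gut (adjusted p = 0.463), and the trend gave 0 in every line. With 1 library per concentration a change at a single concentration has no replicate check.

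The well-counted members kept within narrow ranges. In gut the 2 control libraries had selenoh at an estimated 11.27 and 11.50 on the log2 scale. The 9 exposed libraries ran from 11.30 at 1.6 ppb to 11.58 at 200 ppb. Over all 11 libraries the median was 11.42, and at 1000 ppb selenoh was at 11.34. The slope was 0.03 ± 0.03 log2 units per log10 unit of concentration (limma, adjusted p = 0.905). Over the 11 gut libraries, controls included, selenoh spanned 0.30 log2 units. The exposed libraries lay from −0.09 to 0.19 around the control mean. With 250 methylmercury the selenoh change in gut was −1.81 after centring on the median gene, and −2.82 without centring. A change of a group mean and a span of single libraries are unlike measures. Fluoxetine also called 0.0% of all gut genes, and a difference between the chemicals was not tested.

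In gill selenow1 had controls estimated at 10.14 and 10.38 and exposed libraries from 10.09 at 200 ppb to 10.40 at 1.6 ppb. The slope was −0.03 ± 0.04 (limma, adjusted p = 0.955). In liver selenok had controls estimated at 10.74 and 10.88 and exposed libraries from 10.74 at 500 ppb to 11.04 at 1000 ppb. The slope was 0.05 ± 0.03 (limma, adjusted p = 0.849). For both genes the exposed libraries overlapped the span of the controls, and the highest library of selenok lay 0.23 above the control mean.

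The rare members scattered more widely, on few reads. The selenoe gene encodes Fep15, an endoplasmic reticulum protein known only from fish, and was measured with fluoxetine alone. In gill its estimated reads were 4.48 in the mean of the controls and 0, 3, 2, 0, 1, 2, 2, 0 and 4 in the exposed libraries from 1.6 to 1000 ppb. In gut they were 2.37 in the mean of the controls and 10, 7, 2, 2, 0, 8, 4, 2 and 4. Neither series gave a called trend. For selenol the exposed gill libraries held 3 to 10 reads, those of liver 10.1 to 43 and those of gut 6 to 18, and for selenoo1 the same libraries held 1 to 9, 1 to 15 and 1 to 6. In liver 8 of 9 exposed libraries had selenoo1 above the control mean, with a slope of 0.31 ± 0.25 (adjusted p = 0.894).

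**Figure D5:**
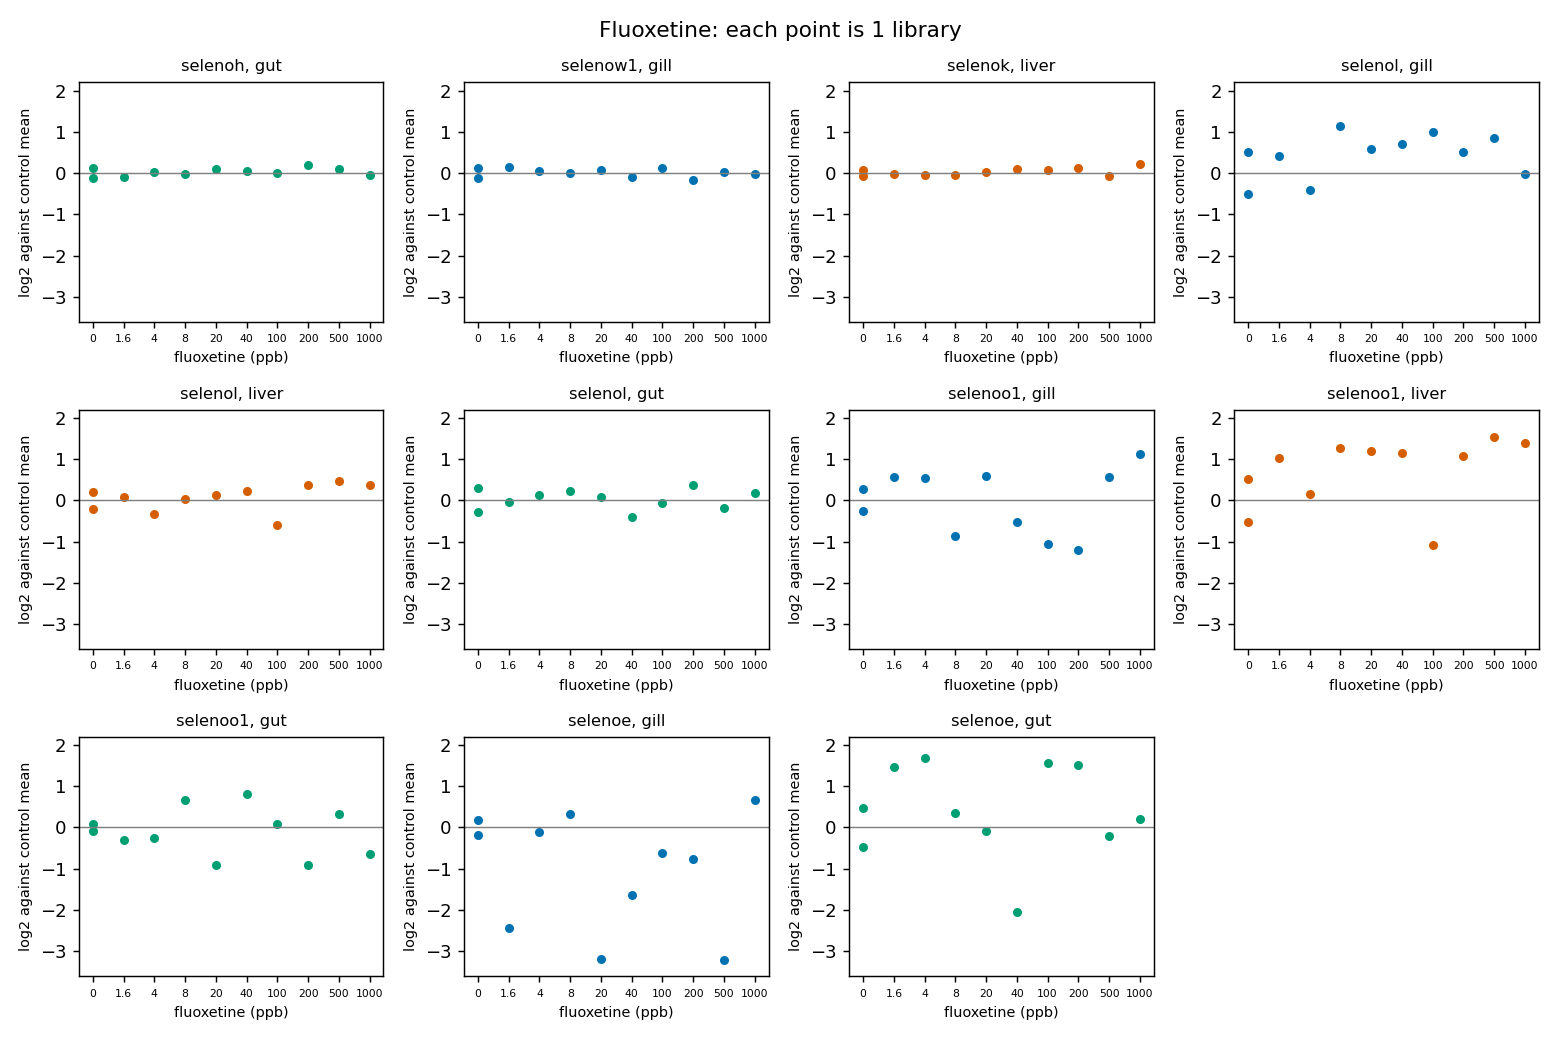
Level of the selenoprotein genes in each fluoxetine library against the mean of the 2 control libraries (log2), by concentration in ppb, for gill in blue, liver in orange and gut in green. The panels of selenoh, selenow1 and selenok stay within 0.23 of 0, and those of selenoe, selenol and selenoo1, with 0 to 43 reads per exposed library, spread over 0.78 to 3.88 log2 units.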

How the data were processed

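RNA sequencing of 69 libraries from 3 trout cell lines was deposited as 6 fold-change tables and 6 benchmark dose tables. Reads were filtered with fastp and quantified with Salmon, per the submitters' processing notes. Versions, genome build and the filter on genes are not given in the sources used here, so no coordinates are printed. The authors' deposited tables hold log2 fold changes against control, log2 mean expression, the F statistic (a score), p-values with their Benjamini-Hochberg adjustment, and benchmark doses on the concentration scale (other columns were the curve's residual SD and lack-of-fit p-value).

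Group means, the moderated variance and its degrees of freedom (7.11 to 7.28 for methylmercury, 2.27 to 2.43 for fluoxetine) were recovered from these columns, assuming the algebra of limma. The adjustment was recomputed and matched the deposited column to within 3.3e-15. For fluoxetine the recovered values are single libraries, the 2 controls without their names, and for methylmercury they are means of 2. The distance between the 2 fluoxetine controls was estimated from the moderated variance, with the lowest-variance gene taken to have none of its own. These controls, ctrl and H2O, give the fluoxetine F-test its only residual degree of freedom before moderation. Read numbers were estimated from the value that 0 reads take, with an offset of 0.5, and CPM are scaled to the summed reads of the table's genes. Fold changes relative to the median gene were tested two-sided with the recovered variance, line differences with summed variances, and the fluoxetine trend with limma 3.58.1 in R 4.3.3, each adjusted over all genes of the table (threshold 0.05). The steps were tested on simulated data. Every seleno gene is named, with the 5 genes most like selenoh. Of each list up to 4 members that passed the deposited F-test in at least 1 line are named. Outside this rule dio2, msrb1b, msra, glrx2, srxn1 and single markers were named after their values were seen. Members and lists were chosen with earlier results of these data known. Trout carry many duplicated genes, and copies known only by locus numbers may share reads with the genes named here. Alternatives were no centring, centring on the mean of the better expressed genes (above the median of mean expression), testing those genes alone, a threshold of 0.01, leaving out 250, other trends and leaving out single fluoxetine libraries.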

Additional observations from a re-analysis of the deposited data

Results flagged for a closer look

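The response to methylmercury differed between lines by a direct test in 4 cases, each over all genes measured in both lines. The change of selenoh at 250 was 0.89 log2 units less negative in gill than in gut and 0.75 less negative in liver than in gut. The liver difference was not called when centred on the better expressed genes (0.57, adjusted p = 0.0613). The change of selenow1 was higher in gill than in gut by 0.95 at 250 and by 1.09 at 125. The comparison at 125 had not been planned. At 250 these were 2 of 6 members between gill and gut, beside 17.5% of all genes, and 1 of 6 between liver and gut, beside 19.3%. At 125 it was 1 of 6 between gill and gut, beside 5.47%. In all 4 cases gut was the lower line. No member was called between gill and liver at 25, 125 or 250, beside 0.0497%, 3.12% and 11.6% of all genes.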

How the results depend on the processing

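Of 171 alternative values, 145 kept direction and side of the threshold or stayed within 1.5 times, 4 became called, 15 counts moved and 7 changes took the other sign. The 145 include the counts of 0 members that stayed 0 with fluoxetine and at 0.25 and 2.5 methylmercury. Without centring, the change at 250 took the other sign for selenol (−0.43) and selenow1 (−0.45) in gill, for selenok (−0.37), selenoo1 (−0.22) and selenow1 (−0.75, and −0.059 when centred on the better expressed genes) in liver, and for selenok (−0.55) in gut. Also without centring, the members called were 3 at 125 and 3 at 250 in gill, and 3 and 3 in liver. In gut they were 2 at 25 and 6 at 125, the 6 including selenol at an estimated 0.82 reads per library. Testing the better expressed genes alone gave 2 at 25 in gut. The F-test on centred values called 1 member in gill and 1 in liver, and in liver 1 was called without 250 and 2 at a threshold of 0.01. Differences between lines without centring were called for 1 member between gill and gut at 25, 2 between liver and gut at 250 and 1 at 125, and centring on the better expressed genes left 0 between liver and gut at 250. For the counts without centring the share of all genes is not given here, so they are not read as a result about the members. The shifts between centred and deposited values follow from the fall of the median gene, which centring removes, and for centring on the better expressed genes the cause was not tested.

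The fluoxetine counts of 0 stayed 0 under the linear and centred trends, among the better expressed genes and without each exposed library. With fluoxetine the F-test and the log10 trend called 0.0% of all genes, so these unchanged counts add little support. No paired analysis was possible because the methylmercury tables give only means of 2 libraries and fluoxetine has 1 library per concentration. Leaving out single methylmercury libraries or single controls was not run for the same reason. For selenol, selenoo1 and selenoe few reads limit every statement.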
